A study of Mus musculus with 48 samples.

Results

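The 40 genes described here are made mainly by endothelial cells, the cells that line blood and lymph vessels. They were named in a list of symbols that uses no threshold on their levels, though earlier results of these data were known when it was drawn up, and all 40 were found among the 47561 genes listed. RNA was sequenced from the lungs of 48 adult mice, 3 in each combination of strain, sex, injection and air, with 1 library per mouse. The strains were the inbred C3H/hen (C3H) and C57Bl/6 (C57B), and males (M) and females (F) gave the groups C3HM, C57BM, C3HF and C57BF. Each mouse received a single injection of saline or of 25 mg/kg ATG (aurothioglucose, a gold-containing drug that blocks thioredoxin reductase), and was then kept in room air or in hyperoxia, above 95% oxygen, for 96 h. The labels name no transgene or deletion. The series' description gives ATG to all mice and names the J substrain of C57B where the methods name the N substrain, so the saline groups and the strain names used here rest on the labels. Values are FPKM, fragments scaled to transcript length and library size, which allow levels of different genes to be compared per length.

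The lung holds one of the densest capillary beds of the body, and its endothelium lies against the alveolar epithelium to form the surface for gas exchange. Endothelial cells are joined by cadherins and claudins, are maintained by vascular endothelial growth factor (VEGF) and angiopoietins, and read BMP ligands from the blood. Their identity is kept by transcription factors of the ETS and SOX families. The capillary endothelium of the lung is well known as an early target of injury by oxygen.

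The whole lung was sequenced, so a lower level of an endothelial gene can come from fewer endothelial cells or from less RNA per cell, and these cannot be told apart. The summed FPKM of the 40 genes was between 3330 and 6487 per lung, or 0.564% to 1.16% of the FPKM of all genes. The general endothelial genes were well expressed in every lung. Pecam1, an adhesion protein of endothelial contacts, had an FPKM of 156 to 313 with a median of 194 in the 12 saline mice in room air. Cdh5, the endothelial cadherin, ranged from 140 to 321 with a median of 175 in the same mice. By median FPKM in these mice the order began with Cldn5 at 575, Ramp2 at 363, Plvap at 323, Egfl7 at 302 and Calcrl at 270. It ended with Robo4 at 12.4, Procr at 12.2, Mmrn2 at 11.4, Flt4 at 5.92 and Prox1 at 0.299. Neighbours in this order overlapped in their ranges, except that Prox1 lay below all values of Flt4. Prox1, the transcription factor that defines lymphatic endothelium, ranged from 0.0969 to 0.572 in saline mice in room air and from 0.242 to 0.678 in saline mice in hyperoxia. It ranged from 0.179 to 0.706 in ATG mice in room air and from 0.146 to 0.605 in ATG mice in hyperoxia. Prox1 did not reach the filter, an FPKM of 1 or more in 3 or more mice, so 39 of the 40 genes were tested and the defining lymphatic gene was near 0 throughout. Several of the genes are not restricted to endothelium: Lyve1 is also made by some tissue macrophages and Cd93 by myeloid cells.

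Promoters are shown for 4 genes that the comparisons below turn on, namely Calcrl and Tie1, which were lower in hyperoxia, and Robo4 and Procr, which were higher. Each window runs from 250 bases before to 50 bases after a transcription start and so includes the beginning of the first exon. The sequences are from RefSeq on GRCm38.p6 and are given on the strand of the gene. Capitals mark the letters AGGAAG or their reverse complement CTTCCT, a form of the sequence recognized by ETS factors such as Erg. Shorter and other forms were not searched and stay unmarked. The Calcrl window is chr2:84425217-84425516 on the minus strand, that of Tie1 is chr4:118489800-118490099 on the minus strand, that of Robo4 is chr9:37401722-37402021 on the plus strand and that of Procr is chr2:155750967-155751266 on the plus strand.
Calcrl: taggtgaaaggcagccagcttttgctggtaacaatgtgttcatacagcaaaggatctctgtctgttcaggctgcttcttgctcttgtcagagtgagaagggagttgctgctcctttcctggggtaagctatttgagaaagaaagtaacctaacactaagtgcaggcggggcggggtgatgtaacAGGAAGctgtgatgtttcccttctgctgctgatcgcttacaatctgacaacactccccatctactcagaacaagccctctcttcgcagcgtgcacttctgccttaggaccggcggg
Tie1: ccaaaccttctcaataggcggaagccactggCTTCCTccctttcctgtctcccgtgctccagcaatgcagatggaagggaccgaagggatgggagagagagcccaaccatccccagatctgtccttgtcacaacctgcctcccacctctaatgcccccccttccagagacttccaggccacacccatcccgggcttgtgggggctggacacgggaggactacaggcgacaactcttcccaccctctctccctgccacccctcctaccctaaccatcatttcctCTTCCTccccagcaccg
Robo4: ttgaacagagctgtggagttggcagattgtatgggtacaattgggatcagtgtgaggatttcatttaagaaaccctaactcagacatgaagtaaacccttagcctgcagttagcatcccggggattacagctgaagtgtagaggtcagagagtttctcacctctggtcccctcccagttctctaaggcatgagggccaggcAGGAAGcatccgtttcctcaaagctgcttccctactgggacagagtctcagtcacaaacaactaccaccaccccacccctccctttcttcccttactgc
Procr: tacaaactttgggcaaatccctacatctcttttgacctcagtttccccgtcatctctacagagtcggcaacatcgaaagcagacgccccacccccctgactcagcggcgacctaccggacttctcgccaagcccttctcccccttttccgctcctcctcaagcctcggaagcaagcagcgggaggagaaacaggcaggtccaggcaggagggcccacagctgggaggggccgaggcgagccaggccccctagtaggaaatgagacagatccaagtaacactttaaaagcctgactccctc

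The capitals mark 1 match in Calcrl, 2 in Tie1, 1 in Robo4 and 0 in Procr. Promoters were found for 21 of the 40 genes, as 26 windows. The ETS letters, searched on both strands, were in 11 of the 26 windows (42.3%) and in 35.4% of all 32851 promoters of the same length. The SOX letters AACAAT or ATTGTT were in 4 of the 26 (15.4%) and in 10.7% of all promoters. These are matches of letters and not sites.

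**Figure D1:**
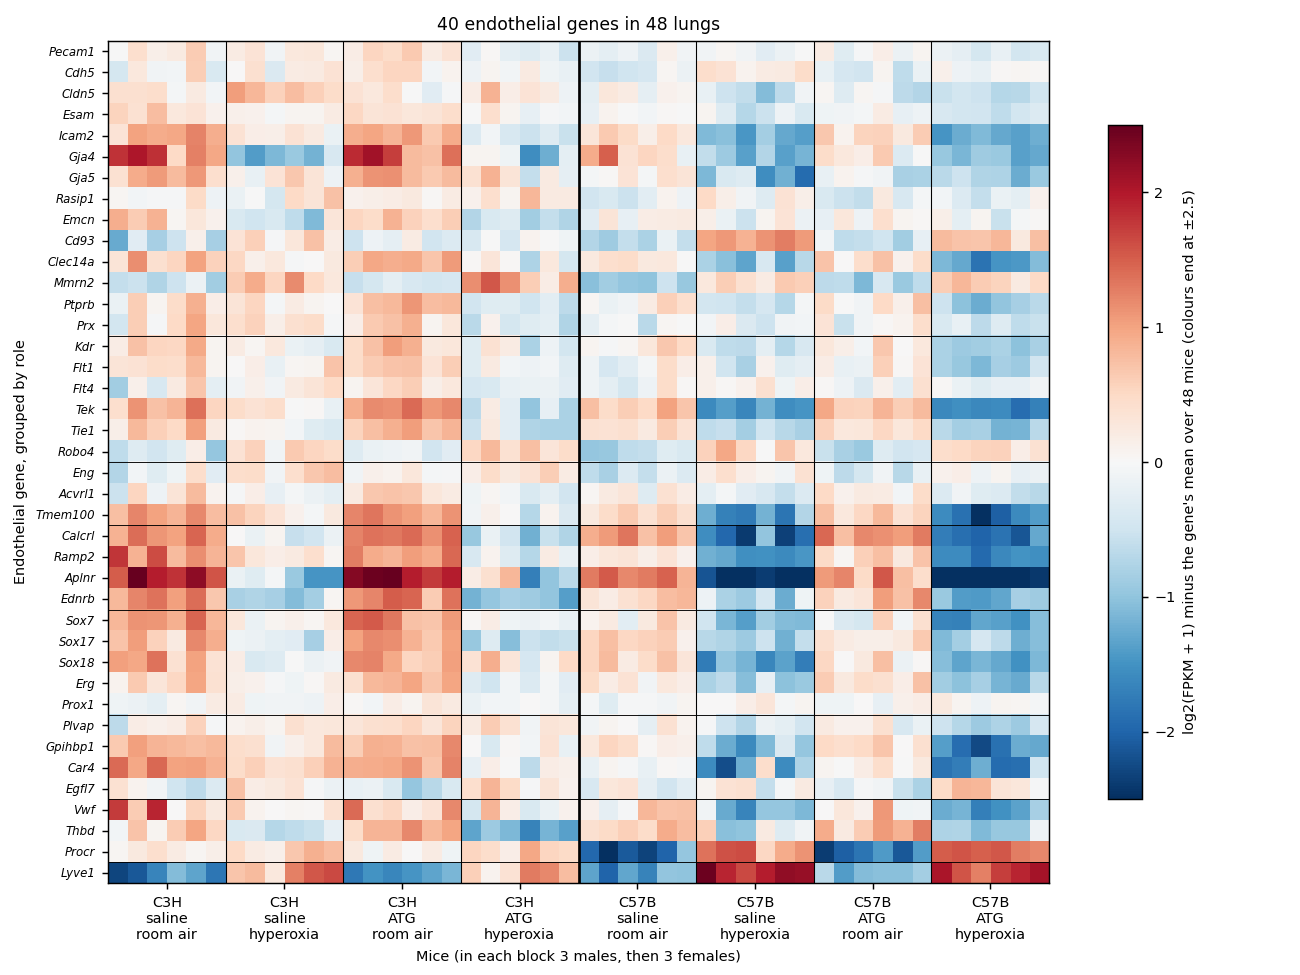
Each row is 1 of the 40 genes, grouped by role, and each column is 1 of 48 lungs, in blocks of 6 mice by strain, injection and air. Colour gives log2(FPKM + 1) minus the mean of the gene over the 48 mice, from blue (lower) to red (higher), with colours ending at 2.5 in both directions. Aplnr, Calcrl and Tek are lower and Lyve1 is higher in the hyperoxia blocks of both strains.

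The first question was how the endothelial genes differed between hyperoxia and room air in mice given saline, 12 against 12 mice. Of the 39 genes tested, 24 fell and 9 rose at an adjusted p under 0.05, and 6 did not pass the threshold. All differences are of log2(FPKM + 1), fitted with limma with adjustment by Benjamini-Hochberg, and understate the change of genes with a low FPKM. Of all 16321 genes tested 60.1% passed, with 31.8% higher and 28.3% lower. The median log2 difference of the 39 genes was -0.65, against 0.01 for all genes tested. Fewer genes had values that did not overlap between the groups: 6 of the 39 were lower without overlap, against 2.13% of all genes, and 2 were higher without overlap, against 5.61%.

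The 4 receptors for peptide hormones all fell. Aplnr, the receptor for apelin (chr2:85136225-85139923 in the GRCm38 annotation), had an FPKM of 13.6 to 44.7 with a median of 22.1 in room air and of 0.0475 to 6.83 with a median of 1.35 in hyperoxia. No lung in hyperoxia reached the lowest value in room air, and the difference was -3.25 ± 0.13 (log2, SE, n = 12 per group, adjusted p = 1.02e-13). Calcrl, the receptor for adrenomedullin and calcitonin gene-related peptide (chr2:84330626-84425411), ranged from 214 to 366 with a median of 270 in room air and from 24.5 to 139 with a median of 77.5 in hyperoxia. These ranges did not overlap either, and Calcrl fell by 2.08 on the log2 scale (SE 0.13, adjusted p = 7.06e-11). Ednrb, the endothelin receptor of the capillary endothelium, ranged from 14.7 to 35.4 with a median of 22.8 in room air and from 4.88 to 13.2 with a median of 6.96 in hyperoxia. The groups were again separate, with a difference of -1.44 ± 0.14 (SE, adjusted p = 4.36e-08). Ramp2, which carries Calcrl to the cell surface and gives it affinity for adrenomedullin, fell by 1.27 on the log2 scale (SE 0.09, adjusted p = 6.29e-10). In the annotation 33.4% of the exon bases of Ramp2 overlap Vps25 on the same strand, so its FPKM may include reads of that gene.

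All 4 transcription factors that could be tested fell. Sox18 ranged from an FPKM of 84.3 to 189 with a median of 114 in room air and from 21.1 to 82.9 with a median of 46.2 in hyperoxia, without overlap. Its difference was -1.45 ± 0.11 (log2, SE, adjusted p = 6.82e-10). Sox17 and Sox7, the other members of the same SOX subfamily, had log2 differences of -1.15 and -1.08, and Erg, the ETS factor that maintains endothelial identity, of -0.72. The annotation places an antisense gene over 16.8% of the exon bases of Sox17, and whether counting used strand is not given in the sources used here.

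Of the 6 receptors for vascular growth and guidance factors, 3 fell and 1 rose. Tek, the angiopoietin receptor (chr4:94739289-94874976), ranged from an FPKM of 55.0 to 108 with a median of 67.3 in room air and from 12.5 to 56.3 with a median of 26.7 in hyperoxia. The highest lung in hyperoxia just passed the lowest in room air, and Tek fell by 1.40 on the log2 scale (SE 0.10, adjusted p = 2.27e-10). Tie1, its partner receptor, had a difference of -0.86 and no overlap between groups, and Kdr, the main signalling receptor for VEGF, had -0.65. Flt1, which binds and limits VEGF, gave -0.25 ± 0.11 (log2, SE, adjusted p = 0.0628), and Flt4, the receptor for VEGF-C, gave 0.22 ± 0.12 (adjusted p = 0.111). Robo4, a receptor that stabilizes vessels, ranged from 8.94 to 20.7 with a median of 12.4 in room air and from 17.2 to 37.1 with a median of 27.0 in hyperoxia. Its ranges overlapped, and it rose by 0.99 ± 0.12 (log2, SE, adjusted p = 4.3e-07).

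Among the 14 junction and surface proteins, 7 fell, 4 rose and 3 did not pass. Gja4, a gap junction protein of arteries, ranged from an FPKM of 24.0 to 114 with a median of 53.6 in room air and from 9.73 to 20.5 with a median of 12.7 in hyperoxia. The groups did not overlap, and the log2 difference was -2.01 ± 0.14 (SE, adjusted p = 3.17e-10). Icam2, Gja5, Clec14a, Emcn, Ptprb and Esam also fell, by 0.31 to 1.15 on the log2 scale. Cd93, which binds the matrix protein Mmrn2, ranged from 34.2 to 90.8 with a median of 51.9 in room air and from 81.4 to 201 with a median of 145 in hyperoxia. A few lungs overlapped, and Cd93 rose by 1.32 ± 0.12 (log2, SE, adjusted p = 1.47e-08). Mmrn2 itself ranged from 9.58 to 18.6 with a median of 11.4 in room air and from 24.0 to 48.3 with a median of 31.2 in hyperoxia. All lungs in hyperoxia were above all in room air, and Mmrn2 rose by 1.30 ± 0.11 (log2, SE, adjusted p = 2.92e-09). Cdh5 and Rasip1 rose by 0.39 and 0.26 on the log2 scale. Pecam1, Cldn5 and Prx had differences of -0.0014, -0.04 and 0.0030.

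Procr, the endothelial receptor for protein C, and Lyve1, the hyaluronan receptor of lymphatic vessels that some tissue macrophages also make, rose most. Lyve1 (chr7:110850607-110863239) ranged from an FPKM of 47.7 to 119 with a median of 84.4 in room air and from 284 to 1304 with a median of 747 in hyperoxia. The groups did not overlap, and the log2 difference was 3.10 ± 0.13 (SE, adjusted p = 1.97e-13). Procr (chr2:155751117-155755471) ranged from 1.08 to 21.9 with a median of 12.2 in room air and from 17.8 to 52.5 with a median of 29.6 in hyperoxia. The ranges overlapped, and Procr rose by 1.80 ± 0.14 (log2, SE, adjusted p = 1.19e-09). Its rise was 3.26 in C57B, while the difference of 0.34 in C3H did not pass. The other clotting regulators fell, Vwf, the platelet-binding factor stored by endothelium, by 1.01 and Thbd, the thrombin receptor that activates protein C, by 0.91 on the log2 scale. Of the BMP and TGF-beta group, Eng, a co-receptor for BMP9, rose from a range of 107 to 254 with a median of 150 to a range of 177 to 322 with a median of 249. These ranges overlapped, and the difference was 0.65 ± 0.10 (log2, SE, adjusted p = 1.85e-05). Acvrl1, the BMP9 receptor, and Tmem100, which lies downstream of it, fell by 0.36 and 1.25 on the log2 scale. Of the capillary and matrix proteins, Gpihbp1, which anchors lipoprotein lipase in capillaries, and Car4, the carbonic anhydrase of the capillary surface, fell by 0.87 and 0.84. Egfl7 rose by 0.30, and Plvap gave -0.13 ± 0.10 (SE, adjusted p = 0.31). The rises of Egfl7 and Rasip1 did not pass after quantile normalization or median ratio scaling, and that of Cdh5 did not pass after quantile normalization.

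**Figure D2:**
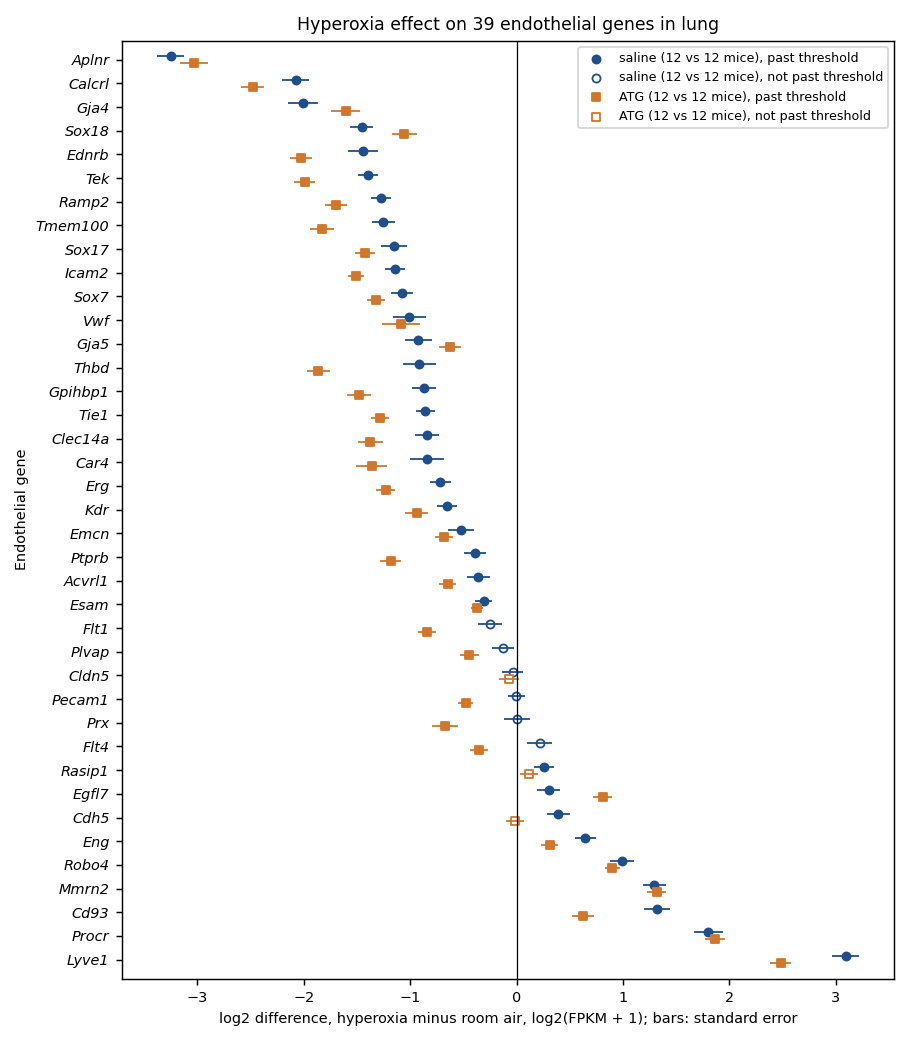
Points give the difference between hyperoxia and room air in log2(FPKM + 1) for 39 genes, with the standard error as a bar, in saline mice (blue circles) and ATG mice (orange squares), 12 against 12 mice each. Filled symbols passed an adjusted p of 0.05, and the genes run from Aplnr at -3.25 to Lyve1 at 3.10 in saline mice.

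Levels of markers of several other cell types moved with hyperoxia in the same lungs. In saline mice the 10 macrophage and monocyte markers summed to an FPKM of 180 to 587 in room air and of 552 to 2054 in hyperoxia, and 7 of 10 rose. Siglecf and Csf1r of this list fell, by 0.42 and 0.39 on the log2 scale. The 6 neutrophil markers summed to 135 to 777 and to 165 to 6336, and all 6 rose. All 9 lymphocyte markers and 7 of 8 alveolar type 2 markers fell, while the remaining type 2 marker, Sftpb, rose by 0.40. The red blood cell markers summed to 3341 to 67957 in room air and to 305 to 2004 in hyperoxia, and the cardiac muscle markers to 30.3 to 1830 and to 15.8 to 96.4, with all those tested lower, 4 and 6 respectively. Of the alveolar type 1 markers Ager, Hopx, Rtkn2, Clic5 and Emp2 fell, and Aqp5, Pdpn and Cldn18 did not pass. Other sums overlapped widely between room air and hyperoxia. They were 425 to 711 and 475 to 756 for fibroblasts, and 290 to 468 and 309 to 696 for pericytes and smooth muscle. Single markers of these lists moved in both directions. Mesothelium gave 91.2 to 367 and 77.8 to 194, and platelets 35.2 to 132 and 41.5 to 125. Scgb1a1, a club cell transcript, was 10.4% to 30.2% of all FPKM in room air and 1.2% to 6.46% in hyperoxia. The part of these shifts in the endothelial differences was not tested. After median ratio scaling 25 of the 39 genes fell and 7 rose, and after quantile normalization 27 fell and 6 rose.

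Lists of related genes were compared in the same way. Of 16 ligands and co-receptors tested, 8 rose and 6 fell, with a median of 0.02. Adm, which encodes adrenomedullin, the ligand of Calcrl with Ramp2, ranged from an FPKM of 2.5 to 26.3 with a median of 11.1 in room air and from 14.9 to 319 with a median of 109 in hyperoxia. It rose by 2.93 ± 0.24 (log2, SE, adjusted p = 3.87e-09), although the ranges overlapped. Pgf, a ligand of Flt1, rose by 2.22 and Edn1, which encodes endothelin-1, by 1.81 on the log2 scale, both without overlap, with medians going from 2.04 to 13.8 and from 17.6 to 67.8. Edn3, a ligand of Ednrb, had a median of 8.96 in room air and 1.57 in hyperoxia and a difference of -1.91. Nrp1, the VEGF co-receptor, gave -1.29, and Angpt1, the activating ligand of Tek, gave -1.18, with medians of 21.6 and 7.54. Apln, the ligand of Aplnr, and Figf, a ligand of Flt4, lie on the X chromosome, where all 946 protein-coding genes of the table were listed at 0 in every lung, against 15.2% of 20439 on autosomes. Their 0 is therefore no measure of their absence, and neither was tested.

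Of 20 other endothelial regulators tested, 13 fell and 2 rose, with a median of -0.36. Nr2f2, the factor of venous identity, Hey1, a Notch target, and Mef2c had differences of -1.21, -1.20 and -0.83, and Heyl and Notch1 of 0.64 and 0.55. Of 40 other endothelial genes tested, 22 fell and 9 rose, with a median of -0.50. Scn7a, Tspan18 and Hpgd, a prostaglandin-degrading enzyme, fell by 2.29, 1.51 and 1.48 on the log2 scale. Selp, the adhesion receptor for leukocytes stored with Vwf, S1pr1, a barrier-protecting receptor for sphingosine 1-phosphate, and Ly6c1 rose by 2.00, 1.57 and 1.40. Selp had a median FPKM of 2.40 in room air and 8.65 in hyperoxia, with 1 lung at 80.8.

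The same question was asked in mice given ATG, again with 12 against 12 mice, none of them shared with the saline comparison. Here 29 of the 39 genes fell and 7 rose, where 61.8% of all 16206 genes passed, 35.8% higher and 26% lower. The median of the 39 genes was -0.94, against 0.06 for all genes. Aplnr ranged from an FPKM of 9.97 to 44.9 in room air and from 0.167 to 13.4 in hyperoxia, and its difference was -3.03 ± 0.13 (log2, SE, adjusted p = 1.19e-13). Calcrl ranged from 222 to 368 and from 29.4 to 117, with a difference of -2.48 ± 0.11 (adjusted p = 1.06e-13) and no overlap. Lyve1 ranged from 68.3 to 149 and from 252 to 1008, again without overlap, and rose by 2.48 ± 0.10 (adjusted p = 3.38e-14). In this comparison 10 genes were lower without overlap, against 4.05% of all genes, and 4 were higher, against 8.82%. Cldn5, Cdh5 and Rasip1 did not pass.

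Whether the effect of hyperoxia differed between saline and ATG was tested as an interaction over all 48 mice. The effect was more negative with ATG in 13 genes and more positive in 1, where 2.77% of all 16994 genes passed, 1.56% higher and 1.21% lower. The median of the 39 genes was -0.36, against 0.04 for all genes. Of the 10 macrophage and monocyte markers 4 also had a negative interaction, namely Marco (-2.08), Chil3 (-1.63), Siglecf (-0.85) and Cd68 (-0.76), and none a positive one. The list summed to an FPKM of 180 to 587 in room air and 552 to 2054 in hyperoxia in saline mice, and of 315 to 770 and 346 to 1867 in ATG mice. The part of these cells in the interaction was not tested, also for Cd93 and Lyve1, which such cells can make. Thbd ranged from an FPKM of 120 to 250 with a median of 186 in saline mice in room air and from 60.8 to 191 with a median of 97.6 in saline mice in hyperoxia. With ATG it ranged from 148 to 308 with a median of 231 in room air and from 39.0 to 115 with a median of 61.8 in hyperoxia. The ranges overlapped in saline but not in ATG mice, and the interaction was -0.95 ± 0.19 (log2, SE, adjusted p = 0.00698). Ptprb, a phosphatase that opposes Tek, ranged from 40.3 to 85.2 with a median of 52.0 in room air and from 27.2 to 66.8 with a median of 44.2 in hyperoxia in saline mice. In ATG mice it ranged from 43.0 to 99.0 with a median of 71.0 and from 18.6 to 37.6 with a median of 29.9. The ranges were thus separate with ATG only, and the interaction was -0.79 ± 0.14 (adjusted p = 0.00281). Cd93, whose values in saline mice are given above, ranged in ATG mice from 45.0 to 95.8 with a median of 62.1 in room air and from 61.4 to 147 with a median of 93.3 in hyperoxia, with an interaction of -0.70 ± 0.16 (adjusted p = 0.0174). Prx, a scaffold protein, ranged in saline mice from 29.8 to 96.0 with a median of 47.6 in room air and from 33.4 to 71.8 with a median of 50.3 in hyperoxia. In ATG mice it ranged from 32.5 to 89.3 with a median of 56.4 and from 28.0 to 51.8 with a median of 35.8, with overlap under both injections and an interaction of -0.68 ± 0.18 (adjusted p = 0.0335). Pecam1, Flt1, Flt4, Tek, Tie1, Tmem100, Erg, Gpihbp1 and Lyve1 gave -0.43 to -0.61, and Egfl7 gave 0.51. Most of the 13 calls were lost when mice 1 and 3 of the saline C3HM in room air were both left out, which leaves 1 mouse in that group. The count of 13 became 7 or 8 without any single one of 7 mice, namely mouse 8 (C3HM saline hyperoxia), mouse 16 (C57BM ATG room air), mouse 24 (C57BM ATG hyperoxia), mouse 27 (C3HF saline room air), mouse 36 (C3HF ATG hyperoxia), mouse 37 (C57BF saline room air) and mouse 42 (C57BF ATG room air). The single positive call, of Egfl7, did not pass with log2(FPKM + 0.1), without a filter, after median ratio scaling or by eBayes without trend. None of the 39 genes had a positive call in 32 of 48 fits that left out 1 mouse.

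ATG was also compared with saline within each air. In room air none of the 39 genes passed with limma, where 0.0185% of all 16228 genes did, 0.0123% higher and 0.00616% lower. At an unadjusted p under 0.05, 5 of the 39 were higher and 2 lower, where 1077 of all 16228 genes passed. Thbd, at 0.31 ± 0.10 (log2, SE), had the smallest p of the 39. In hyperoxia 13 genes were lower with ATG and none was higher, where 5.47% of all 15860 genes passed, 3.89% higher and 1.58% lower. The median of the 39 genes was -0.26, against 0.05 for all genes. Thbd gave -0.64 ± 0.16 (SE, adjusted p = 0.0245), Ptprb -0.52 ± 0.09 (adjusted p = 0.0069), Gpihbp1 -0.52 ± 0.14 (adjusted p = 0.0347) and Prx -0.51 ± 0.10 (adjusted p = 0.0109). Gpihbp1 ranged from an FPKM of 45.3 to 239 with a median of 119 in saline mice and from 28.2 to 177 with a median of 82.2 in ATG mice. The groups overlapped in all 39 genes, as they did in all genes tested, with 0% separated in each direction. Cd93, Flt1, Tek, Ramp2, Flt4, Icam2, Pecam1, Tie1 and Tmem100 were lower by 0.30 to 0.46 on the log2 scale. The count of 13 became 8 without a filter on low values and without mouse 8 or mouse 36, and 7 without mouse 24. The macrophage and monocyte markers, of which 3 of 10 were lower with ATG in hyperoxia, summed to 552 to 2054 in saline and to 346 to 1867 in ATG mice, and their part in the result was not tested. The comparisons within room air and within hyperoxia share their mice with the comparisons of hyperoxia above.

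**Figure D3:**
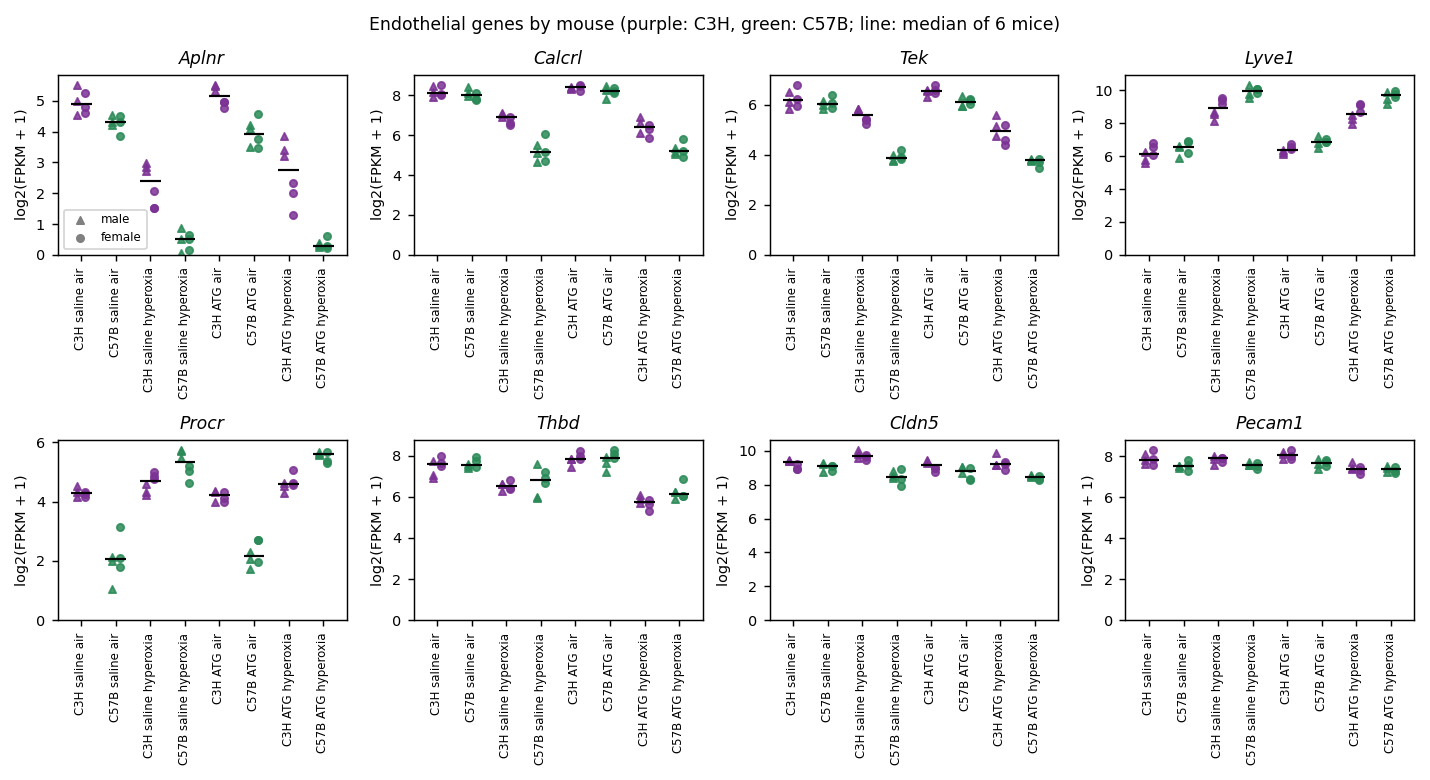
Each panel gives log2(FPKM + 1) of 1 gene in 48 lungs, by injection, air and strain, with triangles for males, circles for females and a line at the median of 6 mice. In saline mice in hyperoxia the medians of C3H and C57B are 4.39 and 0.42 for Aplnr, 46.9 and 13.6 for Tek, and 832 and 347 for Cldn5, in FPKM.

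Strains were compared first in saline mice in room air, C3H minus C57B with 6 mice each. Of the 39 genes, 13 were higher in C3H than C57B and 0 were lower, where 11.8% of all 15546 genes passed, 3.92% higher and 7.87% lower. At an unadjusted p under 0.05, 21 of the 39 were higher and 0 lower, where 4090 of all genes passed in either direction. The median of the 39 genes was 0.33, against -0.10 for all genes. Quantile normalization moved the median of all genes to 0.02 and that of the 39 genes to 0.34, and 14 were then higher. The split over all genes, 609 higher and 1223 lower, became 974 and 930. Procr ranged from an FPKM of 16.7 to 21.9 with a median of 18.4 in C3H and from 1.08 to 7.74 with a median of 3.14 in C57B. The strains did not overlap, and the difference was 2.25 ± 0.24 (log2, SE, adjusted p = 6.69e-05). Car4 ranged from 207 to 305 with a median of 228 in C3H and from 99.4 to 119 with a median of 111 in C57B, a difference of 1.17 ± 0.10 (adjusted p = 1.36e-05). Ramp2 ranged from 419 to 831 with a median of 493 and from 259 to 306 with a median of 282, and gave 0.96 ± 0.15 (adjusted p = 0.0011). Sox7 ranged from 32.0 to 50.3 with a median of 36.3 and from 14.5 to 29.5 with a median of 20.8, and gave 0.83 ± 0.15 (adjusted p = 0.00296). The strains were also separate for Esam, Tmem100 and Gpihbp1, so 7 genes were higher without overlap, against 2.14% of all genes. Gja4, Aplnr, Gja5, Ednrb, Icam2 and Emcn were higher by 0.40 to 0.79 with overlap. The count of 13 became 8 without mouse 13 (C57BM) or mouse 26 (C3HF). In the same lungs 5 of 8 alveolar type 1 markers were also higher in C3H, and the list summed to an FPKM of 4197 to 6843 in C3H and of 3426 to 4041 in C57B, without overlap. Of the other markers, 6 of 8 of alveolar type 2 cells, 6 of 9 of lymphocytes and 5 of 6 of neutrophils were lower in C3H. The lymphocyte markers summed to 30.1 to 64.9 in C3H and to 73.4 to 106 in C57B. The part of these differences in the result was not tested. Reads of both strains were mapped to the same build, mm10, and any effect of sequence differences between strains on the FPKM was not tested.

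In saline mice in hyperoxia, other lungs than those above, 23 genes were higher in C3H than C57B and 3 were lower. Of all 15046 genes 28.2% passed, 16% higher and 12.2% lower. The median was 0.49, against 0.05 for all genes. Aplnr ranged from an FPKM of 1.89 to 6.83 with a median of 4.39 in C3H and from 0.0475 to 0.812 with a median of 0.42 in C57B. All C3H lungs were above all C57B lungs, and the difference was 1.82 ± 0.17 (log2, SE, adjusted p = 3.01e-05). Ramp2 ranged from 249 to 390 with a median of 286 and from 79.2 to 104 with a median of 85.6, and gave 1.73 ± 0.11 (adjusted p = 7.83e-07). Tmem100 ranged from 150 to 259 with a median of 191 and from 43.3 to 92.4 with a median of 56.8, and gave 1.73 ± 0.17 (adjusted p = 3.76e-05). Both were separate between strains. Car4 ranged from 146 to 206 with a median of 163 and from 23.3 to 153 with a median of 42.4, and gave 1.70 ± 0.29 (adjusted p = 0.00153), with 1 C57B lung in the range of C3H. In all, 16 genes were higher without overlap, against 6.23% of all genes, and 1, Cd93, was lower without overlap, against 5.1%. The lower genes were Lyve1, Cd93 and Procr, with differences of -1.03, -0.72 and -0.67. The 7 airway markers summed to 27468 to 43101 in C3H and to 7000 to 17523 in C57B in these lungs, and the macrophage and monocyte markers to 552 to 1272 and to 893 to 2054. Each sum covers a whole list and does not show whether its single markers differed in the same direction. The part of these markers in the result was not tested.

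Whether the effect of hyperoxia differed between strains was tested as an interaction in the 24 saline mice, with the effect in C3H minus that in C57B. The interaction passed in 12 genes, 10 positive and 2 negative, where 11.5% of all 16321 genes passed, 8.71% positive and 2.81% negative. The median of the 39 genes was 0.22, against 0.15 for all genes. Median ratio scaling moved the median of all genes to 0.00 and that of the 39 genes to 0.03, and 7 were then positive and 5 negative, while quantile normalization moved it to -0.01 and left 10 and 2. The split over all genes, 1422 positive and 458 negative, became 926 and 1066, and 862 and 893. Within each strain, 21 genes fell and 7 rose in C3H, where 37.8% of all genes passed, 25.3% higher and 12.5% lower. In C57B 25 fell and 8 rose, where 55.5% passed, 25.5% higher and 30% lower.

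Calcrl fell from a range of 243 to 366 with a median FPKM of 275 to a range of 89.0 to 139 with a median of 119 in C3H. In C57B it fell from 214 to 336 with a median of 261 to 24.5 to 66.0 with a median of 34.2. The differences were -1.34 ± 0.18 and -2.81 ± 0.18 (log2, SE) and the interaction was 1.48 ± 0.26 (adjusted p = 0.00155). Tek fell from 71.1 to 46.9 in C3H and from 64.6 to 13.6 in C57B, and the ranges in hyperoxia were 35.9 to 56.3 and 12.5 to 17.4. Its interaction was 1.47 ± 0.19 (adjusted p = 8.76e-05). Tmem100 fell from 298 to 191 and from 208 to 56.8, with an interaction of 1.22 ± 0.21 (adjusted p = 0.00149). Strains that had overlapped in room air for Calcrl and Tek were thus separate in hyperoxia. Procr went from a median of 18.4 to 24.8 in C3H, a difference of 0.34 ± 0.20 that did not pass (adjusted p = 0.177), and from 3.14 to 39.7 in C57B, a rise of 3.26 ± 0.20. The order of the strains for Procr turned between airs, and the interaction was -2.92 ± 0.28 (adjusted p = 2.73e-06). Cldn5, the claudin of endothelial tight junctions, ranged from 491 to 699 in room air and from 706 to 1060 in hyperoxia in C3H, and rose by 0.49. In C57B it ranged from 435 to 625 in room air and from 242 to 481 in hyperoxia, and fell by 0.56. Its interaction was 1.05 ± 0.20 (adjusted p = 0.0028), and the difference of -0.04 over both strains had thus averaged opposite changes. Emcn, a sialomucin of veins and capillaries, fell by 0.92 in C3H and gave -0.12 ± 0.18 in C57B, with an interaction of -0.80 ± 0.25 (adjusted p = 0.0421). Emcn lost its call in 19 of 24 fits that left out 1 mouse.

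**Figure D4:**
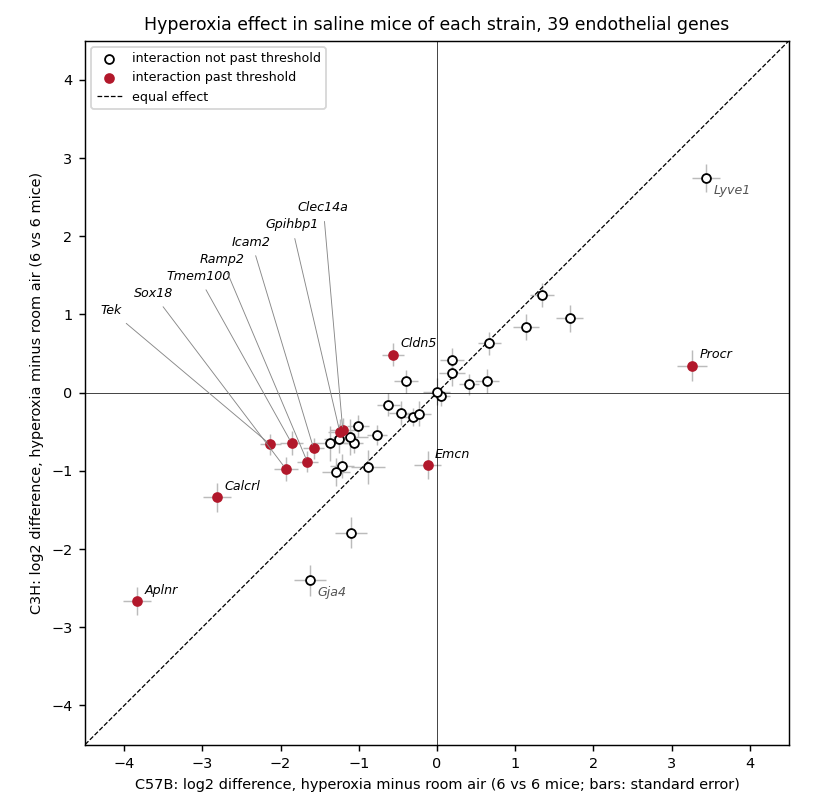
For 39 genes in saline mice, the difference between hyperoxia and room air in log2(FPKM + 1) in C3H (vertical) is plotted against that in C57B (horizontal), 6 against 6 mice each, with standard errors as bars. Red points passed the test of the interaction, and the dashed line marks equal effects. Procr at 3.26 in C57B and 0.34 in C3H lies farthest below the line, and Calcrl and Tek lie above it.

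Sex was compared in saline mice in room air, with 6 males and 6 females. None of the 39 genes passed with limma, where 0.669% of all 15546 genes did, 0.238% higher and 0.431% lower. At an unadjusted p under 0.05, 3 were higher and 4 lower in males, where 3617 of all 15546 genes passed in either direction. Gja4 was highest, at 0.82 ± 0.20 (log2, males minus females, SE, adjusted p = 0.079). The count of genes higher in males passed 0 in 2 of 12 fits that left out 1 mouse, and that of lower genes in 1. Both counts were highest without mouse 2 of C3HM. Without mouse 2, 5 genes were higher in males (Gja4, Ramp2, Car4, Egfl7 and Vwf) and 3 were lower (Ptprb, Flt4 and Thbd). In that fit 3640 genes passed in all, against 104 with every mouse kept. The interaction of strain and sex passed in none of the 39 genes with limma, where 0% of all genes passed. At an unadjusted p under 0.05 it passed in 2, both positive, where 2538 of all 15546 genes passed. Without mouse 2 the interaction of strain and sex passed in 3, Emcn, Ramp2 and Vwf, where 2741 genes passed in all. Vwf had values of 384, 179 and 429 in mice 1, 2 and 3 of C3HM, and mouse 2 was the lowest of them. Mice 1, 2 and 3 had mean correlations of 0.945, 0.943 and 0.955 with the other mice of their group, against a median of 0.968 over pairs of the same group. The interaction of hyperoxia and sex in saline mice passed in none of the 39 genes with limma. Of all genes 0.0368% passed, 0.0306% positive and 0.00613% negative. At an unadjusted p under 0.05, 2 of the 39 were positive and 2 negative, where 2964 of all 16321 genes passed. Within males 22 genes fell and 7 rose in hyperoxia, where 45.1% of all genes passed, 28.1% higher and 17% lower. Within females 21 fell and 6 rose, where 50.3% passed, 23.6% higher and 26.7% lower.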

How the data were processed

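RNA from 48 mouse lungs was sequenced as polyA-selected libraries. The submitters' processing notes name GSNAP, SAMtools, Cufflinks and the build mm10, and the table deposited by the authors holds 1 FPKM value per gene and mouse. The strand setting and the handling of reads with several matches are not given in the sources used here. As these are not counts, no count test was used. The absolute depth is unknown, and steps of low values gave rough relative depths of 0.77 to 1.24. Akap5 was left out, since it held 999999999 as a failed value.

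Models of group means were fitted to log2(FPKM + 1) by limma 3.58.1 (R 4.3.3; eBayes with trend, two-sided), keeping genes that reached an FPKM of 1 in 3 or more mice of the comparison. P-values were adjusted over all genes tested by Benjamini-Hochberg, with a threshold of 0.05. The fits were checked on simulated data. Gene positions came from GENCODE on GRCm38, and promoters from RefSeq. Genes were named by fixed ranks: the 6 largest falls and 6 largest rises past the threshold in hyperoxia in saline mice, the 4 largest changes in the other comparisons, and the 3 largest rises and falls of each related list. Others, such as Cldn5, Emcn, Icam2 and Tie1, were named after their values were seen. The 40 genes and the lists were chosen with earlier results of these data known.

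The alternatives were a pseudocount of 0.1, no filter (above 0 in at least 1 mouse), quantile normalization, median ratio scaling, eBayes without trend, a fit of all 48 mice in 16 groups, and leaving out each mouse. Leaving out mice 1 and 3 together was chosen after seeing the data.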

Additional observations from a re-analysis of the deposited data

Results flagged for a closer look

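The effect of hyperoxia differed between C3H and C57B in 12 of the 39 genes tested in saline mice, by a test of the difference itself (limma, Benjamini-Hochberg adjusted), where 11.5% of all genes passed, 8.71% positive and 2.81% negative. The values are the log2 effect in C3H minus that in C57B. The effect was more positive in C3H for Calcrl (1.48), Tek (1.47), Tmem100 (1.22), Aplnr (1.16), Cldn5 (1.05), Sox18 (0.96), Icam2 (0.87), Ramp2 (0.78), Gpihbp1 (0.75) and Clec14a (0.72). It was more negative in C3H for Procr (-2.92) and Emcn (-0.80). After median ratio scaling 7 were positive and 5 negative, and Emcn lost its call in 19 of 24 fits without 1 mouse.

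The effect of hyperoxia also differed between ATG and saline mice in 14 of the 39 genes, where 2.77% of all genes passed, 1.56% positive and 1.21% negative, with the values given as the log2 effect in ATG minus that in saline. It was more negative with ATG for Thbd (-0.95), Ptprb (-0.79), Cd93 (-0.70), Prx (-0.68), Lyve1 (-0.61), Gpihbp1 (-0.61), Tek (-0.59), Flt1 (-0.59), Tmem100 (-0.58), Flt4 (-0.57), Erg (-0.51), Pecam1 (-0.48) and Tie1 (-0.43). It was more positive for Egfl7 (0.51), a call lost with log2(FPKM + 0.1), without a filter, after median ratio scaling and by eBayes without trend. None of the 39 genes had a positive call in 32 of 48 fits without 1 mouse. The 13 negative calls became 7 or 8 without mouse 8, 16, 24, 27, 36, 37 or 42.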

How the results depend on the processing

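No result changed direction past the threshold under any alternative. Without a filter on low values, the number of genes passing became 5 for ATG in room air, 313 for hyperoxia by ATG, 40 for sex and 2 for strain by sex. The endothelial genes passing became 8 lower for ATG in hyperoxia, 8 lower and 0 higher for hyperoxia by ATG, and 1 lower for hyperoxia by strain. With log2(FPKM + 0.1), 5 genes passed for strain by sex and 0 endothelial genes were higher for hyperoxia by ATG. Median ratio scaling gave 0 higher for hyperoxia by ATG, 5 lower for hyperoxia by strain, and 2 genes in all for hyperoxia by sex. eBayes without trend gave 0 higher for hyperoxia by ATG and 2 genes for strain by sex. With all 48 mice fitted, the counts were 2981 for strain in room air, 2057 for sex (2 endothelial genes higher and 1 lower), 841 for strain by sex (1 higher), 3021 for hyperoxia by strain (4 lower) and 345 for hyperoxia by sex. Without mice 1 and 3 of saline C3HM in room air, chosen after seeing the data, they were 5 for ATG in room air, 30 for sex, 1 for strain by sex, and 5 lower and 0 higher endothelial genes for hyperoxia by ATG. The cause was not tested.

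Leaving out each mouse gave 3 to 32 genes for ATG in room air, 443 to 1096 for ATG in hyperoxia (7 to 15 endothelial genes lower), 243 to 1093 for hyperoxia by ATG (7 to 17 lower and 0 to 1 higher), 1306 to 4021 for strain in room air (8 to 15 higher), 20 to 3640 for sex (0 to 5 higher and 0 to 3 lower), 0 to 2741 for strain by sex (0 to 3 higher), 1400 to 3242 for hyperoxia by strain (1 to 5 lower) and 2 to 1270 for hyperoxia by sex (0 to 1 lower). The highest of these counts over all genes came without mouse 2 (saline C3HM in room air), except for ATG in hyperoxia, where it came without mouse 21 (saline C57BM in hyperoxia). The lowest for sex came without mouse 25 (saline C3HF in room air), and that for ATG in hyperoxia without mouse 8 (saline C3HM in hyperoxia). The counts for hyperoxia in saline and ATG mice stayed at 24 to 25 and 29 lower. Over all genes, the split of higher and lower calls went from 617 and 251 to 350 and 418 for ATG in hyperoxia and from 265 and 205 to 182 and 342 for hyperoxia by ATG under quantile normalization. No paired analysis was possible because each mouse has its own number and no label pairs mice of different groups. The absolute depth is unknown, so counting error could not be given, and Prox1 was too low to test.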
